A study of Homo sapiens with 6 samples.

Results

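The 13 long non-coding RNA (lncRNA) transcripts described here are those against which several short hairpin RNAs (shRNAs) became more frequent in HUH7 cells after selection. They were chosen on the very counts reported below: at least 2 of their shRNAs passed the test for enrichment, and they are all 13 of the transcripts in the library with either at least 2 enriched shRNAs of a log2(fold change) of at least 1 or at least 3 enriched shRNAs. The pooled library lists 63 shRNAs against them, of 7873 shRNAs against 1670 target transcripts. Because the same contrast chose the members, their changes are given as a description without a test of the members.

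Counts per shRNA were available for 3 libraries of the input plasmid pool, prepared before virus production, and for 3 libraries of shRNA cassettes amplified from genomic DNA of the selected cells. HUH7 is an established line of human hepatocellular carcinoma (HCC). The cells received the lentiviral pool, were placed on puromycin 2 days later for 4 days, and were then grown for 4 weeks, whereas the input group is plasmid DNA that never entered a cell. Packaging, infection, puromycin selection and growth therefore all separate the groups and cannot be told apart, and knockdown of the targets was not measured in these counts.

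An shRNA is transcribed from the integrated cassette and cut by Dicer into a duplex, one strand of which, the guide, is loaded into an Argonaute protein and pairs with complementary RNA. Perfect pairing leads to cleavage of the target, while pairing of the seed near the 5′ end of the guide alone can repress other transcripts, as microRNAs do. lncRNAs act in the nucleus or the cytoplasm, often share exons with repeated elements, and many lie head to head with or antisense to protein-coding genes. In a growth screen, an shRNA whose cells multiply faster than the rest of the pool becomes more frequent, and one that slows its cells becomes rarer.

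The targets are 21 bases long and are written below in the orientation of the transcript, 5′ to 3′. The first set holds neighbouring targets that overlap, because their shRNAs are directed at partly the same bases and can be set beside each other. Capitals mark the bases that a target shares with the neighbour printed next to it. All 21 bases of ENST00000558478 shRNA 5 are in capitals, since it overlaps a target on either side.

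ENST00000400192 shRNA 3: actccaggaaAGAAGTTTAAT
ENST00000400192 shRNA 2: AGAAGTTTAATtcacagttcc
LINC02197 shRNA 2: atgtgctaGTGACTATTGAGT
LINC02197 shRNA 1: GTGACTATTGAGTgtggttac
ENST00000558478 shRNA 2: acacctcagtTAAAGCAAGAT
ENST00000558478 shRNA 5: TAAAGCAAGATCAGTCTGTTG
ENST00000558478 shRNA 1: TCAGTCTGTTGgccgagagtg

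The second set shows all 5 targets of ENST00000580085, the only one of the 13 transcripts whose targets each match a single place in the genome, followed by enriched targets from 4 other members. Here capitals mark bases 14 to 20 of the target, which pair with the seed (bases 2 to 8) of the guide strand.

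ENST00000580085 shRNA 5: acagaaataagtcGGAGCTCt
ENST00000580085 shRNA 3: agtagagaacaccCGATGATt
ENST00000580085 shRNA 1: gaatcgttccgaaGTGCTATa
ENST00000580085 shRNA 4: ttcgactgctcagACTGTACc
ENST00000580085 shRNA 2: tagaatctcttgaGGGATATc
GARS1-DT (ENST00000584621) shRNA 4: atatgggtctcacCATGTTAc
GARS1-DT (ENST00000584621) shRNA 5: ctgtagtgcactgGTGCAATc
GARS1-DT (ENST00000426529) shRNA 2: tttcttgcctctgCCTCCTGa
FAM224A shRNA 4: ttatcttcacaagTCTGTAAt
ENST00000571901 shRNA 1: gaaactccgaacaCATCTCAa

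The input libraries held 2323330 to 2612829 counts and the selected libraries 1525256 to 4013368. Beyond counting noise, input libraries varied with a coefficient of variation of 1.47% and selected libraries with one of 23.6%. Whether the libraries of a group came from separate infections is not given, so a p-value here reflects how far these libraries differ among themselves and may describe technical repeats. The reads lack molecular identifiers. Counts were scaled to counts per 1000000 after normalization, called normalized counts below, and tested with edgeR's quasi-likelihood test over 7232 shRNAs whose mean count reached 10. The test used a spread shared by both groups, so its p-values and standard errors do not measure the spread of the selected libraries alone. Each log2(fold change) compares the selected cells with the input library, so that a positive value marks a rise. This is the opposite sign to the one used in the study. Enrichment was called at 0.75 or more and depletion at -0.75 or less, where the adjusted p-value also stood at 0.05 or lower.

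Of the 63 member shRNAs, 61 passed the filter on low counts, 30 were called enriched, 2 were called depleted and 29 neither. In the whole library 5.85% of the tested shRNAs were enriched and 6.83% depleted. The share among the members follows from how they were chosen. The enriched members had log2(fold change) values from 0.88 to 2.73 with a median of 1.15, while the 31 tested members that were not enriched had a median of -0.10, and 8 of them lay above 0. For all 30 enriched members the 3 selected libraries lay above the 3 input libraries, an arrangement that 25.6% of the tested library showed. The call largely brings this with it, since 417 of all 423 enriched shRNAs of the library showed it. The separate groups noted below for enriched members therefore add little to the call. Just inside the threshold was ENST00000580085 shRNA 4 at 0.88, and the highest member outside it was ENST00000558478 shRNA 5 at 0.63.

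The shRNAs against a given member seldom moved together. In 12 of the 13 transcripts at least 1 tested shRNA had a log2(fold change) below 0, and the difference between the highest and the lowest shRNA of a transcript ranged from 0.38 to 3.02. Only 3686 of the 7232 tested shRNAs of the library lay above 0, so values below 0 are not particular to these transcripts. Only ENST00000566922 had all its tested shRNAs enriched, 4 of 4. ENST00000558478 and ENST00000580085 had 3 enriched shRNAs each, and the other 10 transcripts had 2. A further 26 transcripts of the library also had exactly 2 enriched shRNAs without reaching the size required above, against 341 with 1 and 1285 with 0.

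ENST00000400192 is the member with the largest rise. The release of GENCODE used here does not list this identifier, but all 5 of its targets match exons of DUXAP9, a pseudogene of the double homeobox family. All 5 targets occur together in 3 places of GRCh37, at chr14:19680915-19681030, chr14:19894355-19894470 and chr22:16162052-16162167. Its shRNA 2 had 1.51, 5.10 and 1.55 normalized counts in the input libraries and 28.2, 10.4 and 16.8 in the selected libraries. Every selected library lay above every input library, at a log2(fold change) of 2.73 (standard error 0.61), on a sum of 20 raw counts before and 140 after selection. Its shRNA 1 went from 9.46, 8.50 and 6.97 to 32.9, 16.8 and 27.3 (1.61, standard error 0.37), again without overlap of the groups. The target of shRNA 1 also matches an exon of FGF13, which encodes a member of the fibroblast growth factor family, and 12 places in the genome. Without input library 1 or 3 the call of shRNA 2 was lost, and without input library 2 or 3 that of shRNA 1.

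The neighbours of ENST00000400192 shRNA 2 did not share its rise. The target of shRNA 3 starts 10 bases before it and has 11 bases in common with it, and shRNA 3 had 99.1, 91.4 and 106 normalized counts in the input libraries and 92.1, 85.5 and 97.2 in the selected libraries (log2(fold change) -0.11, standard error 0.13). The target of shRNA 4 has 12 bases in common with it at the other end, and shRNA 4 stood at a log2(fold change) of 0.04 with a standard error of 0.18. For both neighbours the groups overlapped, and both were far more abundant in the plasmid pool than shRNA 2. The most abundant shRNA of this transcript, shRNA 5, had 235, 227 and 215 in the input libraries and 229, 230 and 179 in the selected libraries (-0.09, standard error 0.12), and its target matches 2066 places in the genome.

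LINC02197, a long intergenic non-coding RNA, was targeted as ENST00000502659 on the minus strand of chr5:70647682-70742169. All its targets lie in exon 2. On the side of higher coordinates the nearest protein-coding gene is BDP1, which encodes a subunit of the RNA polymerase III initiation factor TFIIIB, 9309 bases away. shRNA 1 had 4.54, 3.83 and 5.42 normalized counts in the input libraries and 22.8, 27.2 and 28.3 in the selected libraries. This was the second largest rise among the members, at a log2(fold change) of 2.50 (standard error 0.34), and the selected libraries lay close together. shRNA 2, whose target at chr5:70649416-70649436 shares 13 bases with that of shRNA 1, went from 47.7, 54.4 and 43.0 to 132, 80.1 and 103 (1.11, standard error 0.21). Both targets match 5 places in the genome. The shRNAs 3, 4 and 5 of LINC02197 had log2(fold change) values of -0.31, -0.52 and 0.28, and shRNA 3, at 283, 266 and 291 in the input libraries and 226, 275 and 178 in the selected libraries, was among the abundant members of the plasmid pool.

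FAM224A is a Y-linked lncRNA with a near copy, FAM224B. Its 5 targets, listed under XR_426557, all occur at chrY:20514777-20514972 on the plus strand and at chrY:19664804-19664999 on the minus strand, so the counts do not separate the copies. shRNA 4 went from 88.2, 89.7 and 79.0 normalized counts in the input libraries to 228, 228 and 154 in the selected libraries (log2(fold change) 1.24, standard error 0.17). Its target, with 28.6% G and C the poorest of the enriched members printed above, matches these 2 places alone. shRNA 5 went from 62.4, 68.9 and 72.0 to 167, 134 and 120 (1.04, standard error 0.16), and its target matches 295 places. The groups were separate for both, and the other 3 shRNAs had log2(fold change) values between -0.44 and -0.07.

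GARS1-DT is the divergent transcript of GARS1, which encodes glycyl-tRNA synthetase, the enzyme that charges tRNA with glycine. It was reached through a pair of member transcripts on the minus strand of chromosome 7. ENST00000426529 (chr7:30587975-30634359, 9 exons) overlaps GARS1 on the opposite strand, and all 4 of its targets lie in exon 2. Its shRNA 2 rose from 20.8, 17.9 and 14.7 normalized counts in the input libraries to 64.5, 65.0 and 47.3 in the selected libraries (log2(fold change) 1.72, standard error 0.24). Its shRNA 1 went from 49.6, 48.1 and 53.0 to 133, 96.5 and 138 (1.28, standard error 0.17). Neither overlapped between groups, and both kept their call under all 14 alternatives. The target of shRNA 2 matches 2 places in the genome and that of shRNA 1 matches 181. shRNAs 3 and 4 had values of -0.16 and -0.04, although the target of shRNA 4 shares 12 bases with that of shRNA 1.

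The second GARS1-DT transcript, ENST00000584621 (chr7:30597712-30612704, 5 exons), starts 7445 bases from GARS1. Its shRNA 4, against exon 5 at chr7:30598788-30598808, was one of the most evenly measured members. It had 94.6, 99.5 and 100 normalized counts in the input libraries and 202, 198 and 211 in the selected libraries (log2(fold change) 1.06, standard error 0.10), and its target matches a single place. shRNA 5, against the same exon, went from 56.0, 61.2 and 52.3 to 80.0, 127 and 134 (1.02, standard error 0.20), with the lowest of the selected libraries still above every input library. shRNA 3, whose target begins at the end of that of shRNA 4 and shares 2 bases with it, had a log2(fold change) of 0.16, shRNA 1 of 0.01 and shRNA 2, across the junction of exons 4 and 5, of -0.95 (standard error 0.35).

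The library holds 3 more transcripts of GARS1-DT. They were screened by the same rule and did not meet it, which limits how many of their shRNAs could be enriched but not how many could fall. Of their 13 tested shRNAs, 4 were depleted in edgeR, against 6.83% of the tested library. ENST00000580902 shRNA 1 fell from 75.7, 73.6 and 84.0 normalized counts in the input libraries to 21.5, 39.6 and 35.8 in the selected libraries (log2(fold change) -1.23 with a standard error of 0.23 and an adjusted p of 0.00474 in edgeR). ENST00000580902 shRNA 2 (-0.92, edgeR adjusted p = 0.00774), ENST00000578293 shRNA 5 (-0.82, adjusted p = 0.0131) and ENST00000581794 shRNA 5 (-1.59, adjusted p = 0.0239) fell as well. The targets of these last 3 match 423, 351 and 3830 places in the genome and exons of 11, 7 and 35 genes. That of ENST00000580902 shRNA 1 matches 4 places. On the other side, ENST00000580902 shRNA 4 had a log2(fold change) of 0.90 that did not pass the test (adjusted p = 0.0660 from edgeR). Over all 5 transcripts of GARS1-DT, 4 of 22 tested shRNAs were enriched, 4 were depleted and 14 did neither, with a median log2(fold change) of 0.08.

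PPP1R3B-DT is the divergent transcript of PPP1R3B, which encodes a subunit that directs protein phosphatase 1 to glycogen in the liver. The member transcript, ENST00000523246, lies on the plus strand of chr8:9107050-9271388, 97966 bases from PPP1R3B, and all its targets lie in exon 1. Its shRNAs moved in both directions. shRNA 1 went from 39.4, 31.0 and 30.6 normalized counts in the input libraries to 85.3, 109 and 74.9 in the selected libraries (log2(fold change) 1.41, standard error 0.21). shRNA 4 went from 35.6, 34.0 and 31.0 to 57.8, 93.9 and 56.6 (1.05, standard error 0.24). shRNA 3 was depleted, from 34.4, 32.3 and 33.7 to 9.41, 9.39 and 17.0 (-1.45, standard error 0.31). The groups were separate for all 3, and the remaining pair, shRNAs 2 and 5, had values of -0.01 and 0.03. The target of shRNA 4 ends 1 base into that of shRNA 5. The target of shRNA 1 matches 47 places in the genome. Without input library 2 or 3 the call of shRNA 4 was lost.

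PTPRG-AS1 is antisense to PTPRG, which encodes a receptor-type tyrosine phosphatase. The 5 targets listed under NR_038283 span chr3:62249534-62302801 on the minus strand. shRNA 4 had 7.19, 7.65 and 3.48 normalized counts in the input libraries and 17.5, 19.1 and 18.5 in the selected libraries (log2(fold change) 1.59, standard error 0.40). shRNA 3 went from 9.46, 9.78 and 15.9 to 40.3, 31.8 and 23.8 (1.43, standard error 0.34). The selected libraries lay above the input libraries in both, but both were rare in the plasmid pool and lost their call without input library 1 or 2, and shRNA 4 also without input library 3. The targets of shRNAs 4 and 3 match 265 and 37 places in the genome, and that of shRNA 4 also an exon of ANXA2R-OT1. The abundant shRNAs 1 and 5 had small positive values of 0.16 (standard error 0.06) and 0.20 (standard error 0.08), and shRNA 2 had -0.17 (standard error 0.34).

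ENST00000566922 lies on the plus strand of chr16:1562980-1564676, inside IFT140 and opposite to it. IFT140 encodes a subunit of the intraflagellar transport complex that carries cargo along cilia. shRNA 2 went from 28.4, 22.5 and 30.6 normalized counts in the input libraries to 80.0, 61.7 and 59.9 in the selected libraries (log2(fold change) 1.29, standard error 0.22). shRNA 5 went from 52.2, 46.8 and 53.4 to 92.1, 113 and 116 (1.08, standard error 0.16). shRNA 4 went from 43.9, 46.4 and 47.2 to 116, 67.0 and 82.9 (0.93, standard error 0.21). This last shRNA varied most between the selected libraries and lost its call without any 1 of the input libraries or without selected library 1. shRNA 3 went from 160, 140 and 144 to 296, 276 and 268 (0.91, standard error 0.10), the smallest standard error among the 30 enriched members. All 4 showed separate groups. The targets of shRNAs 2 and 4 share 13 bases, so these are not separate sites.

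The targets of its enriched shRNAs occur in many places. They match 11, 7373, 160 and 137790 places in the genome for shRNAs 2, 3, 4 and 5. The targets of shRNAs 3 and 5 match exons of 82 and 1895 genes. That of shRNA 4 matches exons of GNE, the initiating enzyme of sialic acid synthesis, and of SMG1, a kinase of nonsense-mediated mRNA decay. shRNA 1, whose target alone matches a single place, was too rare to test, with a sum of 11 raw counts before and 1 after selection.

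ENST00000558478 (chr14:24608654-24609653, plus strand, 2 exons) overlaps EMC9, a subunit of the membrane protein insertion complex of the endoplasmic reticulum, on the opposite strand and starts 478 bases after PSME1, which encodes a subunit of the proteasome activator PA28. All 5 targets lie in exon 2. shRNA 3 went from 36.3, 32.7 and 27.5 normalized counts in the input libraries to 78.6, 73.1 and 89.2 in the selected libraries (log2(fold change) 1.32, standard error 0.19). shRNA 1 went from 63.9, 49.8 and 64.3 to 106, 114 and 153 (1.08, standard error 0.19), and shRNA 4 from 112, 115 and 105 to 224, 247 and 173 (0.95, standard error 0.15). All 3 showed separate groups. The targets of shRNAs 3 and 1 match 4 places and 1 place in the genome. That of shRNA 4 matches 1030 places and exons of 18 genes.

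A stretch of overlapping targets in this exon carried values of opposite sign. At its upstream end, shRNA 2 (chr14:24609466-24609486) was depleted, from 71.5, 70.2 and 71.2 normalized counts in the input libraries to 59.1, 32.9 and 33.8 in the selected libraries (log2(fold change) -0.79, standard error 0.24). shRNA 5, 10 bases further along, went from 107, 109 and 129 to 177, 172 and 185 (0.63, standard error 0.12), and shRNA 1, another 10 bases along, had the value of 1.08 given above. Each of these 3 targets matches a single place in the genome, and each shares 11 bases with the next.

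ENST00000580085 is a transcript of 1 exon at chr17:29119390-29119851 on the plus strand, opposite to CRLF3, which encodes a cytokine receptor-like factor. All 5 of its targets match a single place in the genome and no exon of another gene. shRNA 1 went from 82.1, 81.6 and 75.1 normalized counts in the input libraries to 201, 131 and 131 in the selected libraries (log2(fold change) 0.94, standard error 0.18). shRNA 2 went from 42.8, 39.5 and 45.3 to 84.0, 71.1 and 83.2 (0.90, standard error 0.17), and shRNA 4 from 166, 167 and 174 to 355, 314 and 269 (0.88, standard error 0.11). The groups were separate in all 3, and the 3 targets do not overlap. shRNA 3, one of the abundant members with 311, 317 and 312 in the input libraries and 359, 294 and 266 in the selected libraries, had a value of -0.04, and shRNA 5 one of -0.42 (standard error 0.33) with 15.5, 34.2 and 45.3 in the selected libraries. Without selected library 1 the call of shRNA 1 was lost, at a log2(fold change) of 0.72.

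LINC00963, a long intergenic non-coding RNA, was targeted as NR_038955, whose targets span chr9:132207508-132265256 on the plus strand. shRNA 4 went from 24.2, 28.5 and 22.5 normalized counts in the input libraries to 71.9, 60.3 and 56.6 in the selected libraries (log2(fold change) 1.32, standard error 0.21), and shRNA 5 from 24.6, 30.2 and 24.4 to 58.5, 52.6 and 53.9 (1.06, standard error 0.20). The groups were separate in both. The target of shRNA 4 matches 22 places and that of shRNA 5 matches 39741 places and exons of 488 genes, so the rise of shRNA 5 cannot be assigned to LINC00963. shRNA 3, the only shRNA of this transcript whose target matches a single place, had a value of -0.08 (standard error 0.26), shRNA 1 had -0.37 and shRNA 2 was too rare to test. Of the 10 shRNAs against 3 other transcripts of LINC00963, ENST00000419300 shRNA 2 was depleted (log2(fold change) -0.89, edgeR adjusted p = 0.0160).

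ENST00000571901 (chr17:45076066-45144835, minus strand, 6 exons, gene ENSG00000262879) was targeted in exon 2 by all 5 shRNAs. shRNA 2 went from 127, 110 and 125 normalized counts in the input libraries to 317, 190 and 257 in the selected libraries (log2(fold change) 1.07, standard error 0.17). Exact copies of its target occur at 111 genomic sites, against 3 for shRNA 1. In the same orientation, 14 genes carry the target of shRNA 2 in an exon, 5 of them protein-coding, against 1 gene for shRNA 1. Which of these sites bears on the rise of shRNA 2 was not tested. shRNA 1 went from 7.57, 11.1 and 8.90 to 16.8, 32.2 and 18.5 (1.30, standard error 0.38). It had the highest adjusted p-value of the enriched members and kept its call under 8 of 13 alternatives, the fewest of the 30. shRNAs 3, 4 and 5, all abundant in the plasmid pool, had values of -0.28, -0.31 and -0.09. Of 4 tested shRNAs against other transcripts of the gene, ENST00000575173 shRNA 2 was depleted (-1.03, adjusted p = 0.00652 from edgeR). Its target matches 143 places in the genome.

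ENST00000564832, a transcript of 1 exon at chr8:73859385-73862680, had 4 shRNAs. shRNA 1 went from 32.5, 40.8 and 39.5 normalized counts in the input libraries to 126, 91.5 and 89.7 in the selected libraries (log2(fold change) 1.43, standard error 0.20), and shRNA 2 from 38.6, 36.1 and 37.9 to 80.6, 58.3 and 115 (1.18, standard error 0.25). Both kept their call under all 14 alternatives, and their targets match 7126 and 931 places. shRNA 3, whose target has 10 bases in common with that of shRNA 1, had a value of -0.33 (standard error 0.15), and shRNA 4 had -0.10.

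Other transcripts of the members' genes are in the library as well, and are not members because they did not meet the rule. There were 42 shRNAs against 11 such transcripts of GARS1-DT, LINC00963, PPP1R3B-DT, PTPRG-AS1 and ENSG00000262879. In edgeR 0 of the 36 tested shRNAs were enriched and 6 were depleted, against 5.85% and 6.83% of the tested library. Their median log2(fold change) was -0.07. The count of 0 is partly set by the choice of members and is not independent of it. Without 1 of the input libraries 3 or 4 were depleted, and without 1 of the selected libraries 5 to 7. DESeq2 gave 0 enriched in both runs, with 6 depleted without its beta prior and 5 with it, and at an unadjusted p under 0.05 in edgeR 1 rose and 6 fell past the fold limit. PTPRG-AS1 had the highest median, 0.17 over 6 tested shRNAs, and ENST00000475371 shRNA 2 against it rose from 77.6, 70.2 and 88.6 normalized counts to 121, 120 and 155. Its log2(fold change) of 0.75 lay just under the fold limit (0.748, standard error 0.16, adjusted p = 0.00798 from edgeR). Without selected library 1, 3 of these shRNAs passed as enriched, namely that one and ENST00000580902 shRNAs 3 and 4 against GARS1-DT.

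The members were compared with the library in properties that the rule did not use. The median content of G and C was 52.4% in the members' targets and 47.6% in the library. A single place in the genome was matched by 16 of the 63 targets (25.4%), against 37.1% of the library, and more than 100 places by 25 (39.7%), against 30.7%. Within the members, more than 100 places were matched by 11 of the 30 enriched targets and by 14 of the 31 that were tested and not enriched. Exons of more than 1 gene were matched in the same orientation by 30 targets (47.6%), against 40.2% of the library. Among the members these were 13 of the 30 enriched targets and 16 of the 31 that were tested and not enriched. Exons of protein-coding genes were matched in the same orientation by 24 targets (38.1%), against 45.4% of the library. These shares are descriptions of a list chosen with the counts in view.

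The enriched members were mostly rare in the plasmid pool. Their median was 40.1 normalized counts in the input libraries, against 121 for the tested members that were not enriched and 106 for the library. When the tested library was divided into 4 equal groups by input abundance, 20 of the 30 enriched members fell in the lowest group, 6 in the next, 4 in the third and 0 in the highest. The same division of all 423 enriched shRNAs of the library gave 242, 113, 53 and 15, and their median in the input libraries was 45.8. The part of input abundance in the members' values was not tested.

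The 3 selected libraries contributed unequally. The median log2 ratio of the 30 enriched members to their input mean was 1.33 in selected library 1, 1.15 in selected library 2 and 1.12 in selected library 3. Selected library 1, the shallowest, held the highest value for 15 of the 30, and for 49.9% of all enriched shRNAs of the library. Between libraries, the median coefficient of variation of the enriched members was 9.90% in the input group and 18.8% in the selected group, against 5.42% and 17.5% over the tested library. Over all 423 enriched shRNAs of the library these medians were 8.54% and 18.6%.

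Seeds were compared because shRNAs with the same seed can repress the same unintended transcripts. The 30 enriched members have 30 different seeds of bases 2 to 8 of the guide. Another 128 tested shRNAs of the library carry one of these seeds, and 3 of them (2.34%) were enriched and 10 (7.81%) depleted, with a median log2(fold change) of 0.06. With the shorter seed of bases 2 to 7 there were 400 such shRNAs, of which 20 (5%) were enriched and 24 (6%) depleted. Among the 30 enriched members, FAM224A shRNA 4 has the longer seed (bases 2 to 8) carried by the most other shRNAs. These are 27, with a median log2(fold change) of -0.13.

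Some targets recur almost letter for letter elsewhere in the library. In the same orientation, 7 other shRNAs have a target at no more than 1 mismatch from that of an enriched member, a limit chosen after the values were seen. Their median log2(fold change) was 0.43 and 1 of the 7 was enriched. Members were chosen for high values, so a lower value of a look-alike is no result. The enriched one, ENST00000557993 shRNA 2 against OIP5-AS1, had a value of 0.97 (standard error 0.14, adjusted p = 0.00166 from edgeR) beside 1.28 for GARS1-DT (ENST00000426529) shRNA 1. At the other end, ENST00000522836 shRNA 3, against another transcript of PPP1R3B-DT, had -1.06 (standard error 0.81, adjusted p = 0.337 from edgeR) beside 1.41 for PPP1R3B-DT (ENST00000523246) shRNA 1.

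Within 3 mismatches or with at least 15 consecutive bases in common, 176 tested shRNAs resembled an enriched member in the same orientation. Of these, 12 (6.82%) were enriched and 10 (5.68%) depleted, with a median log2(fold change) of 0.12 and a range from -2.50 to 1.46. Near-identical letters went with values of either sign. ENST00000585086 shRNA 1, whose target differs at 2 bases from that of ENST00000566922 shRNA 3, was depleted (-0.75, standard error 0.16, adjusted p = 0.00841 from edgeR) beside 0.91 for the member.

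Hairpins against the same bases in opposite orientations give much the same duplex with the strands exchanged, and 2 such pairs include a member. The target of LINC00963 shRNA 5 is the exact reverse complement of that of ENST00000419300 shRNA 3, against another transcript of the same gene. The latter had 96.9, 104 and 96.4 normalized counts in the input libraries and 75.9, 104 and 86.2 in the selected libraries (log2(fold change) -0.15 with a standard error of 0.15 and an adjusted p of 0.469 in edgeR), beside 1.06 for LINC00963 shRNA 5. The target of ENST00000566922 shRNA 5 is the reverse complement of that of ENST00000567167 shRNA 2, which had a value of 0.17 (standard error 0.46, adjusted p = 0.803 from edgeR) beside 1.08. Over all 115 tested shRNAs that resemble an enriched member in the opposite orientation, 8 (6.96%) were enriched and 3 (2.61%) depleted.

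The members also resemble each other in a few cases, so that not all 30 enriched shRNAs have unrelated targets. Both shRNAs of such a pair were chosen for high values, so their shared rise is no result. PTPRG-AS1 shRNA 3 and LINC00963 shRNA 5 share 15 consecutive bases, with 4 mismatches over their targets, and had values of 1.43 and 1.06. LINC00963 shRNA 4 lies within 2 mismatches of the reverse complement of ENST00000566922 shRNA 4, and PTPRG-AS1 shRNA 4 shares 16 bases with the reverse complement of ENST00000566922 shRNA 2.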

How the data were processed

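The authors sequenced shRNA cassettes that had been amplified by PCR. The submitters' processing notes name cutadapt 1.4.2, BWA 0.7.10 and SAMtools 1.3 for trimming, alignment to the shRNA sequences and counting. The deposited values are whole, unnormalized counts per shRNA. No column holds the authors' own comparisons, and the annotation table gives each target and its start.

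Counts were normalized by TMM, and those shRNAs whose mean over the 6 libraries reached 10 entered edgeR 4.0.16 in R 4.3.3 (quasi-likelihood, no block, Benjamini-Hochberg adjustment over 7232 shRNAs). Standard errors were obtained by dividing the log2(fold change) by the root of its F statistic. The script was tested on simulated data. Targets were searched without mismatches in both strands of GRCh37 (chromosomes 1 to 22, X and Y) and in GENCODE release 44 transcripts mapped to it, with Python 3.11.15, numpy 2.4.6 and pandas 2.3.3. RefSeq transcripts were placed by their targets.

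shRNAs are numbered in library order. Every shRNA of the members is described. Others are named only if they target another transcript of a member's gene or resemble an enriched member's target (no more than 3 mismatches or at least 15 consecutive bases). The members and lists were chosen with earlier results of these data known. The replicate numbers do not pair the samples (correlations of deviations between -0.03 and 0.01). Alternatives were RLE size factors, library totals, no filter, a filter at a mean of 100, DESeq2 1.42.0 (once with a beta prior and once without), a robust spread, the replicate block and each library left out.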

Additional observations from a re-analysis of the deposited data

How the results depend on the processing

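All 30 enriched members kept a positive log2(fold change) under each alternative that tested them, and 22 of 30 kept their call under all alternatives that tested them. Leaving out 1 library gave 24 to 30 enriched and 0 to 2 depleted members, 9 to 13 transcripts with at least 2 enriched shRNAs, a median log2(fold change) of the members of 0.58 to 0.72, 0 to 3 enriched shRNAs against other transcripts of the same genes, and 288 to 480 enriched and 253 to 603 depleted shRNAs in the library. A mean count of at least 100 left 24 enriched members, since 6 were no longer tested, 9 transcripts with at least 2, a median of 0.26, 1 depleted member and 306 depleted shRNAs in the library. Without a filter the median was 0.28, as the 2 rarest members entered it, and 1 shRNA against another transcript of the same genes was enriched. DESeq2 with its beta prior gave 1 depleted member. With the replicate block, 29 members were enriched, ENST00000571901 shRNA 1 being lost, and 12 transcripts had at least 2. The remaining alternatives gave 30 enriched members. Depth limits the rare members most, such as ENST00000400192 shRNA 2.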
